A study of Mus musculus with 20 samples.

Results

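Inflammasomes are protein platforms that macrophages assemble in the cytosol on contact with microbial or damage signals. A sensor such as NLRP3 recruits the adaptor ASC, which is encoded by Pycard, and ASC in turn gathers pro-caspase-1. Active caspase-1 matures the cytokines IL-1β and IL-18 and cleaves gasdermin D, whose released fragment forms pores in the plasma membrane. In the non-canonical branch, caspase-11 (the product of mouse Casp4) binds cytosolic lipopolysaccharide (LPS) itself and also cleaves gasdermin D, while caspase-8 links these platforms to apoptosis and restrains necroptosis.

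RNA of 10 genes of this system was examined in dCAMs, the macrophages associated with the central nervous system that were sorted from cranial dura mater. The genes were taken by symbol, and 10 of 10 were found among the 33243 rows of the count table. They were the sensor genes Nlrp3, Aim2, Nlrc4, Nlrp1b and Mefv, the adaptor gene Pycard, the caspase genes Casp1, Casp4 and Casp8, and the effector gene Gsdmd. All 10 passed the filter of at least 10 counts in total and were tested among 16632 genes. A list of 48 further genes of the pathway, of which 44 were tested, served as context.

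All mice were Ccr2creERT2/+ R26tdT/tdT animals of both sexes, in which a tamoxifen pulse labels Ccr2-expressing cells with the fluorescent protein tdTomato (tdT). Every mouse, controls included, received BLZ945 (an inhibitor of CSF1R, given to deplete macrophages) over 7 days at 200 mg per kg, and tamoxifen at 2 mg per day on the last of these days and shortly afterwards. At 8 weeks after BLZ945, mice were injected with LPS at 2.5 mg per kg or with PBS (CTL), and the dura was taken 12 h later. The tdT+ and tdT− dCAMs of each mouse were sorted as CD45int CD11b+ CD206int-high cells, so that 10 mice gave 20 libraries in 4 groups of 5. Because the Cre acts only in cells with Ccr2 and only during the tamoxifen pulse, a tdT− cell is one that was not labelled in that pulse, whatever its origin. Values are listed below in the order of mice 174, 175, 177, 178 and 179 for CTL and of mice 54, 56, 59, 60 and 61 for LPS. Levels are given as CPM, the counts of a gene relative to the size of its library, scaled by the trimmed mean of M values.

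Libraries held 6017650 to 18925908 counts, and those of LPS mice were the deeper ones, at 12073566 counts or more against at most 12208203 in CTL mice. The tdT− CTL libraries stood apart, with 6671 to 9365 genes at 10 counts or more, against 10024 to 11032 in tdT+ CTL and 10930 to 11987 in LPS libraries. The lowest were the tdT− CTL libraries of mice 174, 177 and 179, and call counts and the values of the 10 genes are also given without these 3. All 10 macrophage markers examined, among them Mrc1, Csf1r and Adgre1, exceeded 3 counts in every library. Mertk was lowest at 0.759 CPM in a tdT− CTL library, against 83.1 to 165 CPM in tdT+ CTL libraries. In bulk RNA a smaller share of expressing cells and less RNA per cell cannot be told apart.

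The start regions of 4 genes are shown first. Pycard and Mefv were chosen because they were called under LPS in both populations, and Nlrp3 and Casp4 because their windows held an NF-κB motif match. RefSeq promoter entries (GRCm38.p6) matched 9 of the 10 genes with 12 start sites, and Gsdmd was without a match. The 250 bases before the start are printed 5′ to 3′ on the strand of the gene, with NF-κB (kB) motif matches in capitals. The other start site of Nlrp3, without a kB match, and that of Casp4, which overlaps the one shown, are not printed.
Pycard, chr7:127993868-127994117, minus strand: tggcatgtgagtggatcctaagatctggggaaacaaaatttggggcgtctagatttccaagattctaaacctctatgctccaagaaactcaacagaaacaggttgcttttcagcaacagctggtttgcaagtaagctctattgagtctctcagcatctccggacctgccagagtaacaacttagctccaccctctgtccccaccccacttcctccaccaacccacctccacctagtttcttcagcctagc
Mefv, chr16:3718125-3718374, minus strand: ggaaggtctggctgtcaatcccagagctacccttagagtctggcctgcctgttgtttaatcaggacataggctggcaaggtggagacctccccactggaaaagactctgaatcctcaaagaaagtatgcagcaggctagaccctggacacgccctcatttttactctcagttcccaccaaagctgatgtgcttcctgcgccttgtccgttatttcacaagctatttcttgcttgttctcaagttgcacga
Nlrp3, second start site, chr11:59541319-59541568, plus strand: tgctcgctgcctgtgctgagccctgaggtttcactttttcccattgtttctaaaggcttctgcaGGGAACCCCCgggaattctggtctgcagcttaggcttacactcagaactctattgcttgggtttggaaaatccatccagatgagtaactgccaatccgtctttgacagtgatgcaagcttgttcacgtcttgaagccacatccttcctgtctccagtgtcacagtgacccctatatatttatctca
Casp4, first start site, chr9:5308599-5308848, plus strand: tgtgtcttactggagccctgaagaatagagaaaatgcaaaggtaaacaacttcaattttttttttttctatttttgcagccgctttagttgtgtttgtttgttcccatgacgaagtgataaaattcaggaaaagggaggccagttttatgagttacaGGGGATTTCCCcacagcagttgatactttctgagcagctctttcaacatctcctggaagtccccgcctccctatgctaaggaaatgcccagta

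Of the 9 genes, Nlrp3 and Casp4 held a kB match in this window. In Nlrp3 it lay at −186 to −177 from the second start site, and in Casp4 overlapping matches began at −93 and −92 from the first start site. A kB match, searched on both strands, was present in 3.9% of 32851 promoter windows of the same length. The 6-letter core GAGGAA bound by the myeloid factor PU.1 occurred 3 times before the first start site of Nlrp3 and 2 times before that of Aim2. It also occurred 1 time each in Nlrp1b, Pycard and Casp1, and 23.3% of all windows held it. The interferon motifs GAS (TTCNNNGAA, 7.02% of windows) and ISRE (GAAANNGAAA, 2.98%) and the AP-1 motif (TGANTCA, 6.75%) had 0 matches in the 12 windows. These are matches of letters, and no binding was measured.

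The resting order of the genes was compared per length, as CPM per kilobase of the principal transcript. In tdT+ CTL dCAMs Casp1 was highest at 84.9 ± 12.6 CPM per kilobase (SD, n = 5), followed by Casp8 at 71.3 ± 12.8 and Gsdmd at 49.5 ± 4.99. Nlrp3 came next at 24.96 ± 7.46 CPM per kilobase, ahead of Casp4 at 14.2 ± 8.46, Pycard at 11.4 ± 3.29, Nlrc4 at 8.55 ± 4.09 and Aim2 at 6.77 ± 5.15. The SDs of Casp1 and Casp8 overlapped, as did those of neighbours from Nlrp3 through Casp4 and Aim2 down to Nlrp1b. For Casp4 the principal transcript has 1435 bases and all exons together 3710, so its place in this order depends on the length used. The place of Pycard rests on its length of 3800 bases. Without division by length, Pycard averaged 43.4 CPM and Casp4 20.4 CPM in tdT+ CTL libraries. Nlrp1b was low at 2.09 ± 0.965 CPM per kilobase and Mefv had 0 counts in all 5 libraries. Under LPS Gsdmd ranked first in tdT− dCAMs at 119.5 ± 11.1 CPM per kilobase and in tdT+ dCAMs at 110.3 ± 21.5 CPM per kilobase.

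**Figure D1:**
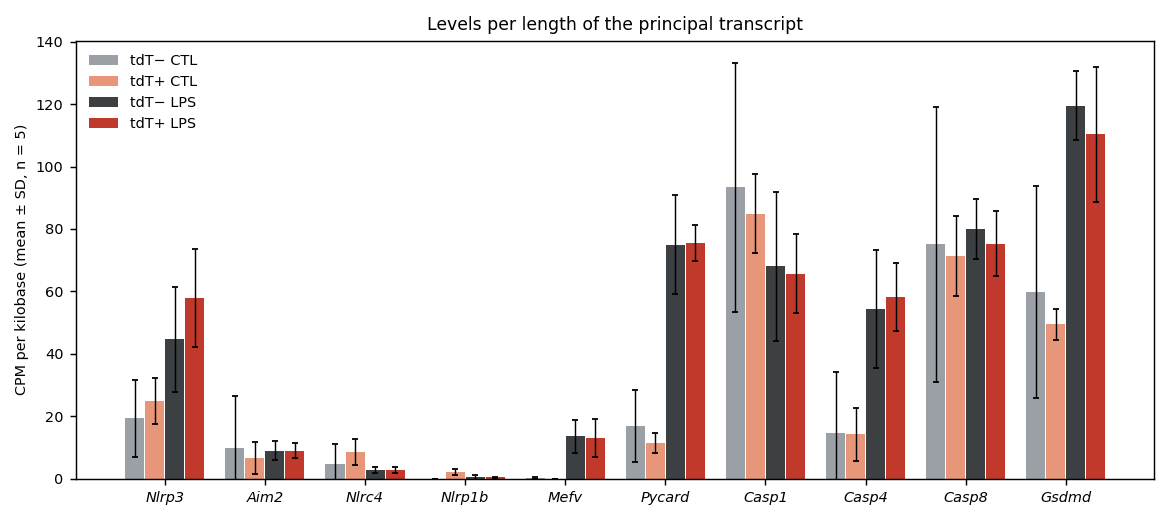
Level of each gene per length of its principal transcript, in CPM per kilobase, as bars of the mean with the SD over 5 libraries in each of the 4 groups. Casp1, Casp8 and Gsdmd were the highest genes in CTL dCAMs, and the bars of Gsdmd, Pycard, Nlrp3 and Casp4 were higher in LPS than in CTL libraries.

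The comparison of LPS with PBS asked which components of the system changed within 12 h in each population. In tdT− dCAMs, Pycard and Mefv rose, so that 2 of 10 genes were called higher and 0 lower. A call required a Benjamini-Hochberg adjusted p under 0.05 over all genes tested in edgeR's quasi-likelihood test and an absolute log2 fold change over 1. Over all genes, 7.2% were called higher and 4.27% lower in this comparison. In tdT+ dCAMs, Pycard, Mefv and Gsdmd rose (3 of 10 higher and 0 lower, against 3.37% higher and 2.52% lower over all genes). The median log2 fold change of the 10 genes was 1.10 in tdT− and 0.79 in tdT+ dCAMs, against 0.02 and 0.01 over all genes. Setting Nlrp1b in tdT− and Mefv in tdT+ dCAMs to their floor bounds (2.37 and 6.89) could not move these medians, since both bounds lie above them.

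Pycard (chromosome 7, 127989708 to 127993867, GRCm38, protein coding), the adaptor that joins sensors to caspase-1, rose in both populations. In tdT− CTL libraries it measured 13.5, 70.9, 81.4, 124 and 29.4 CPM, and in tdT− LPS libraries 255, 269, 238.5, 390.0 and 273 CPM. In tdT+ CTL libraries it measured 59.9, 28.8, 41.5, 51.7 and 35.3 CPM, and in tdT+ LPS libraries 306, 271, 301, 299 and 257 CPM. Every LPS library was thus above every CTL library in both populations. The log2 fold change was 2.16 ± 0.41 in tdT− (SE, n = 5 per group, edgeR adjusted p = 0.000999) and 2.72 ± 0.41 in tdT+ dCAMs (adjusted p = 0.000127). Both calls held under every alternative that was run, with adjusted p from 8.07e-07 to 0.0311 in tdT− and from 6.22e-10 to 0.00085 in tdT+ dCAMs. Exons of Pycard overlap those of Gm45205 in GENCODE M21, and without a stated strand setting reads of that overlap cannot be told apart.

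Mefv (chromosome 16, 3707218 to 3718097, protein coding) encodes pyrin, an inflammasome sensor. It went from near absence to a measurable level. In tdT− CTL libraries its counts were 0, 0, 0, 20 and 0, and in tdT+ CTL libraries 0 in all 5. Under LPS it measured 52.1, 17.7, 60.5, 37.4 and 41.9 CPM in tdT− and 30.4, 35.1, 71.1, 21.6 and 42.5 CPM in tdT+ dCAMs. The groups did not overlap in either population. Against a floor of 3 counts per library, Mefv was at least 118-fold higher under LPS in tdT+ dCAMs (edgeR adjusted p = 0.000336). In tdT− dCAMs, where 1 CTL library held its 20 counts, the log2 fold change was 6.47 ± 1.35 (SE, n = 5 per group, adjusted p = 0.0038). Fitted on the 10 tdT− libraries alone, that adjusted p was 0.0522, the highest of its alternatives, which began at 1.78e-08.

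Gsdmd (chromosome 15, 75862327 to 75867408, protein coding), the pore-forming effector, was higher under LPS in tdT+ dCAMs. Its tdT+ CTL libraries measured 101, 91.1, 90.9, 82.8 and 77.9 CPM and its tdT+ LPS libraries 166, 146.5, 229, 225 and 222 CPM, without overlap. The log2 fold change was 1.15 ± 0.30 (SE, n = 5 per group, edgeR adjusted p = 0.0183). Without LPS mouse 59, 60 or 61 the adjusted p was 0.0646 to 0.0695, the highest of its alternatives, which began at 0.000284. In tdT− dCAMs Gsdmd measured 71.9, 65.3, 143, 197 and 58.4 CPM in CTL and 210.1, 191, 207, 217 and 246 CPM in LPS libraries, and the library of CTL mouse 178 overlapped with the LPS range. There the adjusted p was 0.0292 but the log2 fold change of 0.999 ± 0.295 stayed just under the required size of 1. The voom fit with mouse as a replicate block gave 1.13 with an adjusted p of 0.00463, where the median over all genes was 0.76. The gene also passed without CTL mouse 177 (1.12), CTL mouse 178 (1.37) or LPS mouse 54 (1.09). Its adjusted p over alternatives ranged from 0.00144 to 0.162.

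**Figure D2:**
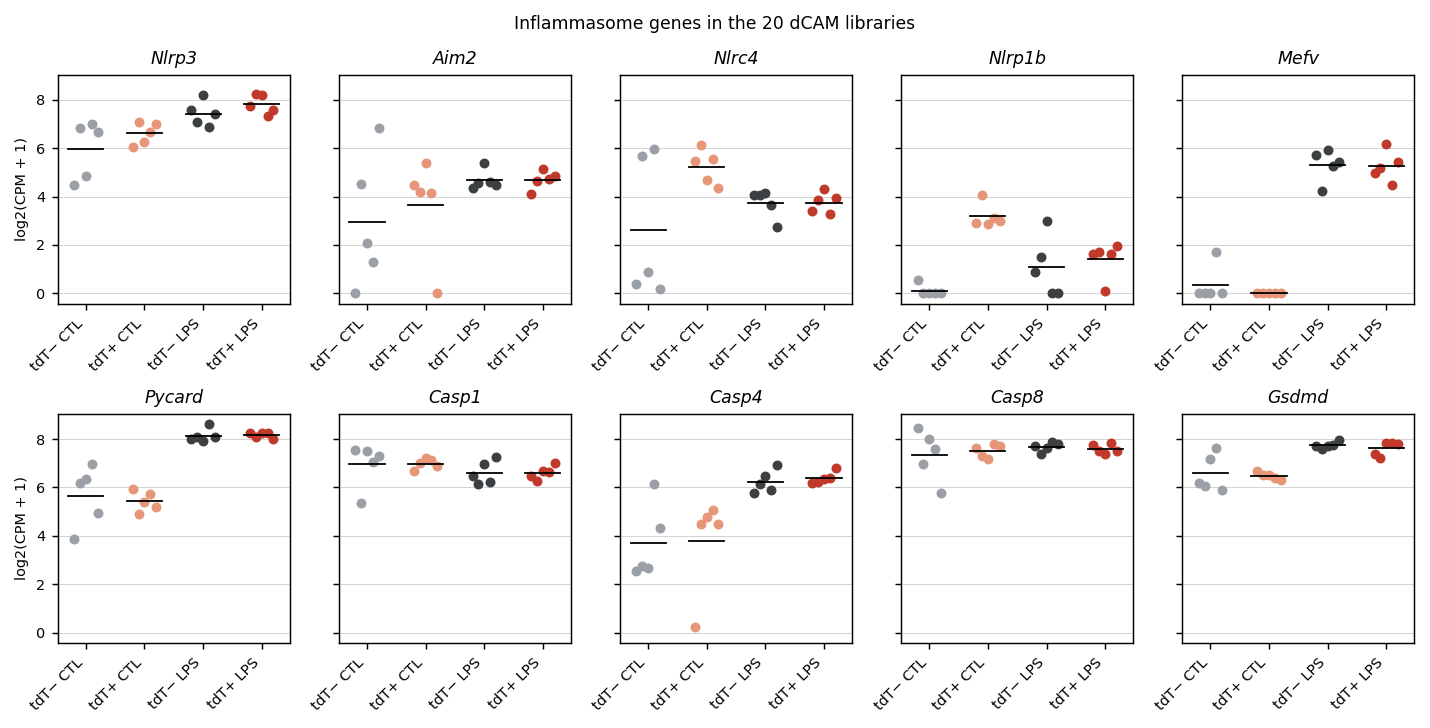
Level of each of the 10 genes in the 20 libraries as log2(CPM + 1), where each point is a library and each line the mean of its group of 5. Pycard and Mefv showed no overlap between CTL and LPS libraries in either population, and the points of tdT− CTL libraries were spread most widely for Nlrc4, Aim2 and Casp4.

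The remaining sensors did not move together. Nlrp3 (chromosome 11, 59541568 to 59566956, protein coding), whose transcription is a known priming step, measured 66.0, 135, 75.5, 100.2 and 125 CPM in tdT+ CTL libraries. In tdT+ LPS libraries it measured 212, 301.5, 295, 161 and 191.5 CPM, and the groups did not overlap. The log2 fold change was 1.21 ± 0.42 (SE, n = 5 per group) but the adjusted p in edgeR was 0.106 in tdT+ dCAMs. In tdT− dCAMs Nlrp3 measured 21.1, 113, 27.7, 127 and 100.5 CPM in CTL and 190.4, 133, 289, 117 and 169 CPM in LPS libraries, with overlap at the lower end of LPS. The log2 fold change there was 1.20 ± 0.42 (adjusted p = 0.0665). In the voom fit with a mouse block it was 1.45 (adjusted p = 0.036), where the median over all genes was 0.76. Without CTL mouse 175 the log2 fold change of Nlrp3 was 1.47 (adjusted p = 0.0391). Its adjusted p over alternatives ranged from 0.0359 to 0.259.

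Nlrc4 (chromosome 17, 74425438 to 74459142, protein coding), the partner of the NAIP receptors for bacterial flagellin and secretion needles, pointed downward in tdT+ dCAMs. It measured 43.6, 68.1, 24.8, 46.0 and 19.5 CPM in tdT+ CTL and 9.58, 13.4, 19.1, 8.60 and 14.2 CPM in tdT+ LPS libraries. No LPS library reached the lowest CTL library. The log2 fold change was −1.64 ± 1.06 (SE, n = 5 per group, edgeR adjusted p = 0.452). In tdT− CTL libraries its counts were 2, 453, 7, 550 and 1, and the 3 low ones came from the libraries with the fewest detected genes. The tdT− log2 fold change was −0.78 ± 1.04 with all libraries (adjusted p = 0.658) and −2.08 without those 3 (adjusted p = 0.00448). Over its alternatives it ran from −2.08 to 2.09, so that its sign depended on the fit, with adjusted p up to 1.0.

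Nlrp1b (chromosome 11, 71153102 to 71230733, protein coding), another of the sensor genes, was a low gene. In tdT+ dCAMs it measured 6.49, 15.7, 6.34, 7.65 and 6.98 CPM in CTL and 2.11, 2.31, 0.0696, 2.11 and 2.84 CPM in LPS libraries. The groups did not overlap, but the edgeR adjusted p was 0.464 for a log2 fold change of −2.19 ± 1.44 (SE). In tdT− dCAMs its counts were 3, 0, 0, 0 and 0 in CTL and 12, 25, 114, 0 and 0 in LPS libraries, with an adjusted p of 0.0839. Without CTL mouse 174, which held the 3 counts, the adjusted p was 0.0268, and its range over alternatives was 0.0113 to 0.34. Nlrp1b has close paralogs in the mouse, so its counts depend on how shared reads were assigned. Aim2 (chromosome 1, 173350879 to 173466040, protein coding), a sensor of cytosolic DNA, varied within groups, from 0 to 112 CPM in tdT− CTL and from 0 to 40.9 CPM in tdT+ CTL libraries. Its LPS libraries measured 16.1 to 40.6 CPM, and the adjusted p was 0.977 in tdT− and 0.953 in tdT+ dCAMs.

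Among the caspases, Casp4 and Casp1 lie next to each other on chromosome 9 (5308828 to 5336783 and 5298517 to 5307265, both protein coding). Casp4 measured 0.162, 21.2, 26.6, 32.2 and 21.8 CPM in tdT+ CTL and 71.9, 72.8, 79.5, 82.6 and 110.1 CPM in tdT+ LPS libraries. The tdT+ groups did not overlap, and the log2 fold change was 2.03 ± 0.81 (SE, edgeR adjusted p = 0.165). In tdT− dCAMs it measured 4.86, 5.82, 5.40, 69.7 and 19.2 CPM in CTL and 54.2, 69.2, 86.6, 59.2 and 121 CPM in LPS libraries. Only the library of CTL mouse 178 reached the LPS range there. The tdT− log2 fold change was 1.89 ± 0.81 (adjusted p = 0.125), and without CTL mouse 178 it was 3.16 (adjusted p = 0.0136, the lowest of alternatives that reached 0.428). Casp4 passed with mouse as a replicate block in both populations, at 2.66 in tdT− (adjusted p = 0.0226) and 2.95 in tdT+ dCAMs (adjusted p = 0.0249, in a range over alternatives of 0.00751 to 0.293). In that voom fit the median over all genes was 0.76 in tdT− and 0.13 in tdT+ dCAMs.

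Casp1, the canonical executioner that matures IL-1β, was not called. It measured 187, 40.5, 183, 132 and 156 CPM in tdT− CTL and 88.1, 68.9, 124.5, 74.7 and 153 CPM in tdT− LPS libraries. In tdT+ dCAMs it ranged from 101 to 149.8 CPM in CTL and from 75.4 to 126 CPM in LPS libraries. The log2 fold change was −0.46 in tdT− (95% interval −1.16 to 0.25) and −0.37 in tdT+ dCAMs (−1.07 to 0.33). Casp8 (chromosome 1, 58795374 to 58847503, protein coding) measured 52.9 to 346 CPM in tdT− CTL and 144 to 220.3 CPM in tdT+ CTL libraries, against 164 to 232 CPM in the 10 LPS libraries. Its log2 fold change was 0.09 in tdT− (95% interval −0.59 to 0.77) and 0.08 in tdT+ dCAMs (−0.60 to 0.76).

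The ratio of Casp4 to Casp1, in CPM per kilobase, can be read within each library. In tdT− CTL libraries it was 0.027, 0.15, 0.0308, 0.552 and 0.129, and in tdT+ CTL libraries 0.00168, 0.175, 0.186, 0.241 and 0.192. Under LPS it was 0.642, 1.05, 0.726, 0.827 and 0.828 in tdT− and 0.844, 1.01, 0.813, 0.868 and 0.91 in tdT+ dCAMs. The 10 LPS libraries lay between 0.642 and 1.05, above the highest CTL value of 0.552. The principal transcript of Casp4 has 1435 bases and all its exons together 3710, while both lengths are 1497 for Casp1. The size of the ratio therefore depends on the length used, though its order between libraries does not. The ratio was chosen after the values were seen and is given without a test.

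**Figure D3:**
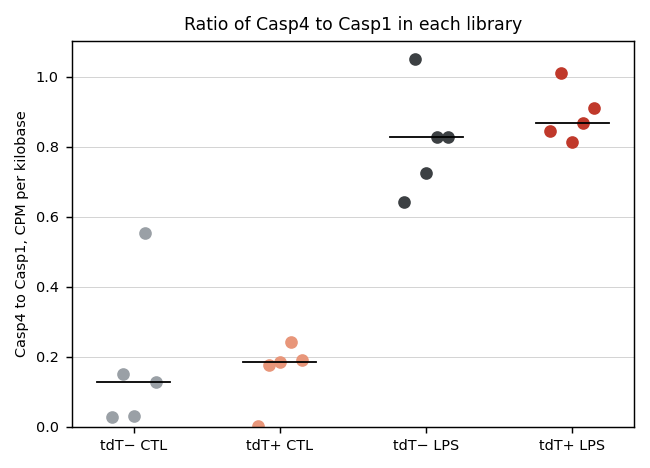
Ratio of Casp4 to Casp1 in CPM per kilobase of principal transcript, with 1 point per library and a line at the median of each group of 5. The medians were 0.129 and 0.186 in tdT− and tdT+ CTL dCAMs and 0.827 and 0.868 under LPS.

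Counted over the 10 genes, LPS and CTL libraries did not overlap for 2 genes higher under LPS in tdT− dCAMs (Mefv and Pycard) and 0 lower. Over all genes tested, 9.32% were without overlap with LPS higher and 3.31% with LPS lower. In tdT+ dCAMs 5 genes were without overlap and higher (Nlrp3, Mefv, Pycard, Casp4 and Gsdmd) and 2 without overlap and lower (Nlrc4 and Nlrp1b), against 10.6% and 7.19% of all genes. The joint fit takes its spread from all 20 libraries, the uneven tdT− CTL libraries included. Fitted on the 10 tdT+ libraries alone, 5 of the 10 genes were called higher (Nlrp3, Mefv, Pycard, Casp4 and Gsdmd) and Nlrc4 was called lower, against 7.89% and 7.34% of all genes. Without the 3 tdT− CTL libraries with the fewest detected genes, the joint fit called 4 genes higher and 1 lower for tdT+ libraries (6.49% and 5.47% of all genes), whereas in tdT− dCAMs it called 2 higher and Nlrc4 lower (10.8% and 7.14% of all genes). The fit with a mouse block called 5 genes higher in tdT− and 4 in tdT+ dCAMs, and it also called more of all genes. Its calls over all genes in tdT− dCAMs came to 22.0% with LPS higher and 5.23% with LPS lower, and those in tdT+ dCAMs to 5.88% and 3.57%. After thinning every library to 6017650 counts, 2 genes were called higher in tdT− and 3 in tdT+ dCAMs, against 7.86% and 3.46% of all genes.

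In tdT− dCAMs, Pycard and Mefv also passed without those 3 libraries, with log2 fold changes of 1.56 (edgeR adjusted p = 0.00116) and 5.21 (adjusted p = 0.00569). Gsdmd was at 0.72 (adjusted p = 0.113), Nlrp3 at 0.59 (adjusted p = 0.259) and Casp4 at 1.06 (adjusted p = 0.428), each smaller than with all libraries. Nlrp1b was at 7.55 (adjusted p = 0.0683), Aim2 at 1.12 (adjusted p = 0.515), Casp8 at 0.40 (adjusted p = 0.231) and Casp1 at 0.25 (adjusted p = 0.665). The estimates of Casp1 and Aim2 thus changed sign, without a call in either fit. Only 2 tdT− CTL libraries were left in this fit.

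**Figure D4:**
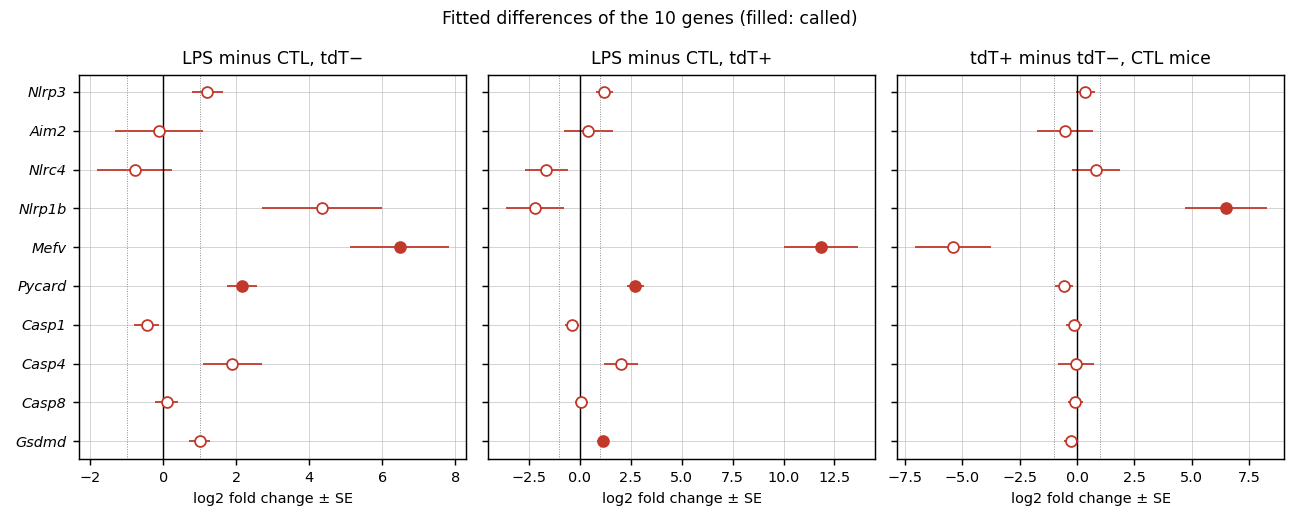
Fitted log2 fold change with its SE for each of the 10 genes in the LPS comparison of tdT− and tdT+ dCAMs and in the comparison of tdT+ with tdT− dCAMs of CTL mice (n = 5 per group). Filled points were called, dotted lines mark a log2 fold change of 1 in either direction, and each panel has its own horizontal scale.

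Some of the marker genes of other cells moved with LPS as well. The summed level of 9 neutrophil markers was 1.05 to 181 CPM in CTL and 244 to 823 CPM in LPS libraries, with 3 of the 9 over 3 counts in every library of each LPS group. S100a8 (up to 625 CPM under LPS) and Mmp8 (56.9 to 142 CPM) carried that sum in both populations and Retnlg (23.2 to 642 CPM) in tdT− dCAMs. The defining marker Ly6g stayed at or under 1.54 CPM, Cxcr2 at or under 7.65 CPM and S100a9 at or under 2.18 CPM in LPS libraries. The 6 dendritic cell markers summed to 618 to 3330 CPM in tdT− CTL libraries, against 51.2 to 77.1 CPM in tdT+ CTL libraries. Cd209a led that sum, and Flt3 (median 30.7 CPM, up to 348), Zbtb46 (median 44.0, up to 197) and Ccr7 (median 7.23, up to 214) were also measured in tdT− CTL libraries, against medians of 0, 15.6 and 0 CPM in tdT+ CTL libraries. Clec9a was at 0 in all tdT− CTL libraries and Xcr1 in all CTL libraries. Under LPS the dendritic list summed to 262 to 638 CPM in tdT− dCAMs, with Ccr7 at 222 to 599 CPM, and to 11.4 to 52.6 CPM in tdT+ dCAMs. The 5 monocyte markers summed to 548 to 1100 CPM in tdT− CTL and 160 to 467 CPM in tdT+ CTL libraries. The 7 stromal markers summed to 10.8 to 3790 CPM (median 267) in tdT− CTL and 128 to 327 CPM (median 183) in tdT+ CTL libraries. The 3 erythroid markers found summed to 3.18 to 509 CPM (median 11.2) in tdT− CTL and 0.811 to 17.8 CPM in tdT+ CTL libraries. The part of these cells in the levels of the 10 genes was not tested.

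The tdT+ and tdT− dCAMs of a mouse were then compared, first in CTL mice. The gene called was Nlrp1b, which was higher in tdT+ dCAMs, so that 1 of 10 genes was called higher and 0 lower, against 3.01% and 1.27% of all genes. Its CTL counts were 40, 148, 55, 73 and 91 in tdT+ against 3, 0, 0, 0 and 0 in tdT− dCAMs. It was higher in tdT+ dCAMs in 5 of 5 mice and at least 22.9-fold higher on average (edgeR adjusted p = 0.0394). The call was lost in 6 of the 10 fits that left out 1 mouse (CTL mouse 175, 177, 178 or 179 or LPS mouse 54 or 56, adjusted p 0.0628 to 0.0787). It was also lost in the fit on the 10 CTL libraries alone (adjusted p = 0.29, the highest of its alternatives, which began at 8.46e-05) and with mouse as a fixed replicate block (adjusted p = 0.0786). The fit on the CTL libraries alone called 7 of 14405 genes tested, against 712 of 16632 in the joint fit. Every tdT− CTL library was at or under the floor for Nlrp1b. Each of them also had fewer detected genes (at most 9365) than any tdT+ CTL library (at least 10024). The part of that in the Nlrp1b difference was not tested. Without the 3 libraries with the fewest detected genes, Nlrp1b no longer passed (adjusted p = 0.05 after rounding), and Mefv (−6.75, adjusted p = 0.0101) and Pycard (−1.14, adjusted p = 0.00997) were called lower in tdT+ dCAMs, with 2 tdT− CTL libraries left.

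For the other genes of CTL mice, the adjusted p was at least 0.429 except for Mefv at 0.075, whose difference rests on the 20 counts of 1 tdT− library. The 95% interval of the log2 difference, tdT+ minus tdT−, was narrowest for Gsdmd (−0.88 to 0.34), Casp8 (−0.76 to 0.61) and Casp1 (−0.84 to 0.56). It ran from −1.37 to 0.26 for Pycard and from −0.51 to 1.24 for Nlrp3, and from −3.04 to 1.99 for Aim2. In the voom fit with a mouse block, 2 genes were called higher in tdT+ dCAMs, Nlrp1b and Nlrc4 (3.56, adjusted p = 0.0295, in a range over alternatives up to 0.891). In that fit the median over all genes was 0.54. Without the 3 libraries Nlrc4 was at −0.45 (adjusted p = 0.604).

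In LPS mice 0 of the 10 genes were called between the populations, against 0.0301% of all genes, and 0 reached an unadjusted p under 0.05 in edgeR. DESeq2 likewise called 0. The log2 difference of Pycard was 0.01 with a 95% interval of −0.80 to 0.82, that of Casp1 −0.05 (−0.75 to 0.65) and that of Gsdmd −0.12 (−0.72 to 0.49). Nlrp3 was higher in the tdT+ library in 5 of 5 LPS mice, at 212, 301.5, 295, 161 and 191.5 CPM against 190.4, 133, 289, 117 and 169 CPM, with a log2 difference of 0.37 ± 0.42 (SE, 95% interval −0.50 to 1.24). Over all genes, 1642 of 16632 had the same sign in all 5 LPS mice.

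The difference between the LPS effects of tdT+ and tdT− dCAMs asked whether the populations responded unequally. It was called for 0 of the 10 genes, against 1.26% of all genes, with 2 genes at an unadjusted p under 0.05 in edgeR. These were Nlrp1b at −6.54 ± 2.17 (SE, adjusted p = 0.174) and Mefv at 5.35 ± 1.92 (adjusted p = 0.218), both with CTL libraries at or near the floor. DESeq2 called Nlrp1b (−6.75, adjusted p = 0.00949, in a range over alternatives up to 0.574). Without the 3 tdT− CTL libraries with the fewest detected genes Mefv was called (6.70, adjusted p = 0.0321). For Pycard the 95% interval of the difference was −0.58 to 1.71, for Gsdmd −0.70 to 1.02 and for Nlrp3 −1.23 to 1.24.

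The further genes of the pathway gave context. Under LPS 7 of 44 were called higher and 1 lower in tdT− dCAMs, against 7.2% and 4.27% of all genes. In tdT+ dCAMs 9 were called higher and 1 lower, against 3.37% and 2.52% of all genes. The median log2 fold change of the 44 was −0.03 in tdT− and 0.36 in tdT+ dCAMs, against 0.02 and 0.01 over all genes. A mouse block gave 15 calls in tdT− dCAMs, 14 of them higher, and 15 without the 3 tdT− CTL libraries, 10 of them higher. The shares of all genes called in those fits were higher too, as given above. Without the 3 libraries the 8 genes called in tdT− dCAMs still passed, with adjusted p up to 0.0192.

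Of the cytokine outputs, 4 of 6 were called higher in tdT− and 5 of 6 in tdT+ dCAMs, against 7.2% and 3.37% of all genes. Il1rn, the secreted antagonist of the IL-1 receptor, measured 126, 6.15, 5.16, 16.3 and 4.97 CPM in tdT− CTL and 2585, 3856, 3599, 2419 and 5183 CPM in tdT− LPS libraries. Its log2 fold change was 6.80 ± 0.96 in tdT− and 6.94 ± 0.96 in tdT+ dCAMs (SE, n = 5 per group, edgeR adjusted p = 5.16e-05 and 4.65e-05). In the voom fit with a mouse block the estimates were 8.19 and 8.09 but the adjusted p rose to 0.975 and 0.98. These were the highest of alternatives that began at 1.35e-15 and 3.23e-16. Both calls were also lost with limma-voom quality weights, at 8.32 in tdT− (adjusted p = 0.648) and 7.29 in tdT+ dCAMs (adjusted p = 0.189). The groups did not overlap in either population.

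Il1a, an alarmin that does not need caspase-1, was at or under 3 counts in all tdT− CTL libraries and averaged 242 ± 137 CPM (SD, n = 5) in tdT− LPS libraries, at least 644-fold higher. In tdT+ dCAMs it rose from 6.38 ± 7.60 to 313 ± 156 CPM (SD, n = 5, log2 fold change 5.61 ± 1.07, edgeR adjusted p = 0.00141). Il1r2, the decoy receptor, was at 0 counts in all tdT+ CTL libraries and at least 180-fold higher under LPS in tdT+ dCAMs, and its log2 fold change in tdT− dCAMs was 4.06 ± 1.28 (adjusted p = 0.0481). Il18bp, which neutralises IL-18, rose by 2.29 ± 0.75 (adjusted p = 0.0476) and 2.71 ± 0.76 (adjusted p = 0.0324) on the log2 scale in tdT− and tdT+ dCAMs. The calls of Il18bp were lost in 8 of the 10 fits without 1 mouse in each population, and that of Il1r2 in tdT− dCAMs in 7.

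Il1b, the main substrate of caspase-1, was already abundant at rest. It measured 1497, 902, 1160, 2364 and 1664 CPM in tdT− CTL and 470.1, 515, 774.5, 990.1 and 434 CPM in tdT+ CTL libraries, and was lower in tdT+ dCAMs in 5 of 5 CTL mice. Under LPS it measured 2491, 1763, 2284, 1745 and 2118 CPM in tdT− and 1374, 1354, 1849, 1508 and 1305 CPM in tdT+ dCAMs. It rose in tdT+ dCAMs by 1.21 ± 0.24 (SE, n = 5 per group, edgeR adjusted p = 0.00211), and the log2 difference of tdT+ from tdT− in CTL mice was −1.25 ± 0.24 (adjusted p = 0.00339). Under a mouse block the adjusted p values were 0.0946 and 0.103, in ranges over alternatives of 0.000106 to 0.0946 and 0.000103 to 0.19. The difference between the LPS effects was 0.76 ± 0.34 for Il1b and was not called (adjusted p = 0.318).

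Of the caspase-8 and necroptosis genes, 2 of 8 were called higher in each population, Zbp1 and Mlkl. Over all genes, 7.2% were called higher in tdT− and 3.37% in tdT+ dCAMs. Zbp1, a sensor of Z-form nucleic acids, rose by 2.28 ± 0.55 in tdT− and 2.48 ± 0.56 in tdT+ dCAMs on the log2 scale (SE, n = 5 per group, edgeR adjusted p = 0.00815 and 0.00669). In tdT− dCAMs the Zbp1 call was lost with limma-voom quality weights (adjusted p = 0.0621) and in the fit of those 10 libraries alone (adjusted p = 0.06). Mlkl, the necroptosis effector, had at most 1 count in each tdT− CTL library and was at least 173-fold higher under LPS in tdT− dCAMs. In tdT+ dCAMs it rose from 6.10 ± 6.22 to 77.2 ± 27.1 CPM (SD, n = 5, adjusted p = 0.0356), a call lost in 7 of the 10 fits without 1 mouse. Ripk3, Ripk1 and Fadd were not called.

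Among 12 other sensors and their partners, Sting1, the adaptor of cytosolic DNA sensing, was lower under LPS, with a log2 fold change of −1.94 ± 0.33 in tdT− and −1.39 ± 0.33 in tdT+ dCAMs (SE, edgeR adjusted p = 0.000401 and 0.00996). It measured 118 to 422 CPM in tdT− CTL and 97.6 to 205 CPM in tdT+ CTL libraries, against 50.4 to 84.5 CPM in the 10 LPS libraries. Nlrx1, a mitochondrial member of the NLR family, had at most 1 count in each tdT− CTL library and was at least 54.5-fold higher under LPS in tdT− dCAMs. In tdT+ dCAMs it measured 4.61 to 18.3 CPM in CTL and 19.1 to 35.3 CPM in LPS libraries, with a log2 fold change of 0.96 that was not called. Of 10 regulators, Pstpip1, a binding partner of pyrin, rose by 1.17 ± 0.27 (adjusted p = 0.00826) and Trim30a by 1.01 ± 0.29 (adjusted p = 0.0395) in tdT+ dCAMs, and 0 were called in tdT− dCAMs. Trim30a fell short of the call in several alternatives, with an adjusted p of 0.00862 to 0.159 (0.0503 with a mouse block) and a log2 fold change from 0.79 without LPS mouse 60. The calls without CTL mouse 178 numbered 10 in tdT− and 12 in tdT+ dCAMs over the 44 genes, against 2016 and 979 of 16249 genes tested. None of the 6 other caspases or the 2 other pore genes tested, Gsdme and Ninj1, was called in an LPS comparison.

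**Figure D5:**
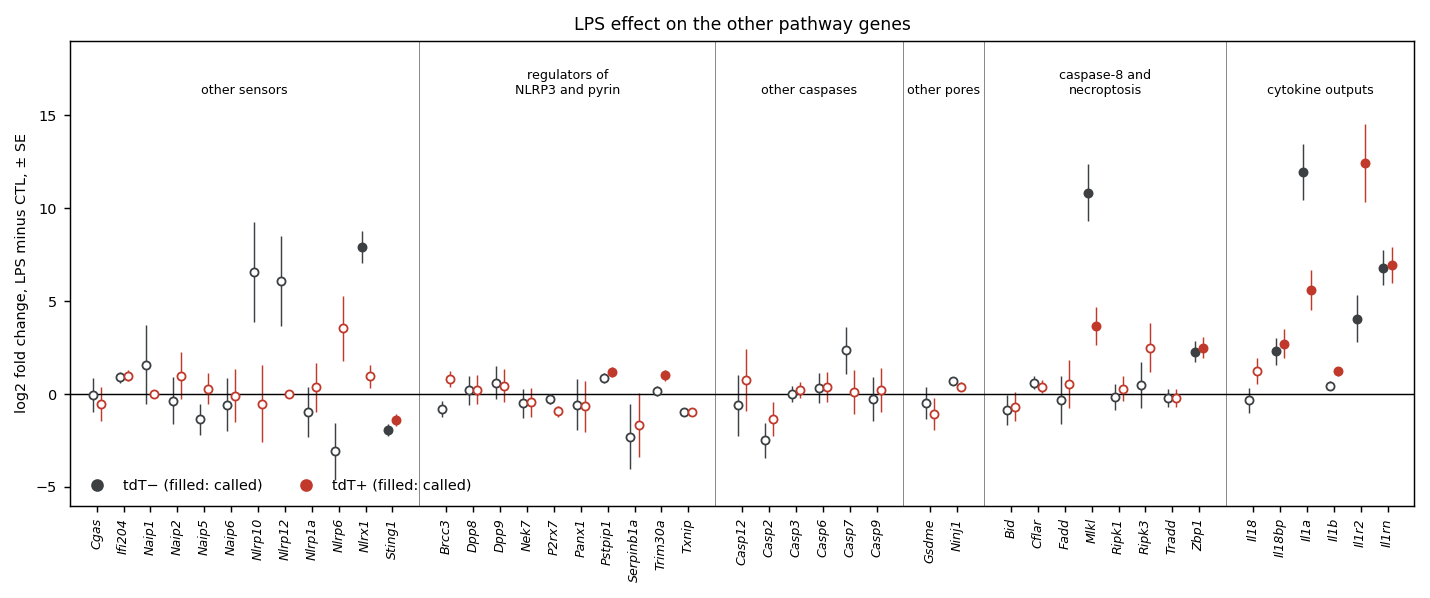
Log2 fold change of LPS against CTL with its SE for the 44 further pathway genes tested, grouped by role, in tdT− and tdT+ dCAMs (n = 5 per group), with called genes filled. Filled points above 0 included 4 of 6 cytokine outputs in tdT− and 5 of 6 in tdT+ dCAMs, against 7.2% and 3.37% of all genes called higher. Values of Il1a, Mlkl and Nlrx1 in tdT− and Il1r2 in tdT+ dCAMs were fitted against CTL libraries at or under 3 counts, so that their size is no bound.

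Between the populations of CTL mice, 3.01% of all genes were called higher in tdT+ dCAMs and 1.27% lower. Of the 44 genes, 3 were called higher (Il1a, Mlkl and Nlrx1) and 2 lower (Il1b and Il1r2). The higher ones were at or under 3 counts in every tdT− CTL library, and at least 16.9-fold (Il1a), 16.2-fold (Mlkl) and 35.2-fold (Nlrx1) higher in tdT+ dCAMs. In the fit on the 10 CTL libraries alone 0 of the 44 were called, and 8 were called without the 3 tdT− libraries, where Il1a no longer passed (adjusted p = 0.0537). Over all genes, the fit on the CTL libraries alone called 7 of 14405, against 712 of 16632 in the joint fit. Without the 3 tdT− libraries 1359 of 16248 were called. Under a mouse block through voom the adjusted p of Il1a was 0.192. In LPS mice 0 of the 44 were called, against 0.0301% of all genes, with 3 of the 44 at an unadjusted p under 0.05 in edgeR.

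Genes that varied most like the members are given as a description, over the 20 libraries, which share treatment and depth differences, and among the 5823 genes whose mean log2 CPM reached 4. The pattern of Pycard was closest to Manf (Pearson r = 0.978) and Cndp2 (r = 0.967), that of Gsdmd to Ywhae (r = 0.949) and B2m (r = 0.936), and that of Nlrp3 to Dtx2 (r = 0.918) and Ppp1r15b (r = 0.910). Casp4 was closest to Dennd4a (r = 0.921) and Mcl1 (r = 0.871), Casp8 to Chmp1b (r = 0.919) and Nfs1 (r = 0.912), and Casp1 to Rabgap1 (r = 0.794) and Ccnq (r = 0.764). With the group means removed, Pycard was closest to Vps29 (r = 0.959) and Aggf1 (r = 0.949), Gsdmd to Knop1 (r = 0.905) and Cemip2 (r = 0.904), and Nlrp3 to Msantd4 (r = 0.870) and Ppp1r15b (r = 0.865). The same treatment gave Mt2 (r = 0.890) and Nol10 (r = 0.890) for Casp4, Chmp1b (r = 0.934) and Nfs1 (r = 0.931) for Casp8, and Tox4 (r = 0.863) and Sub1 (r = 0.834) for Casp1.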

How the data were processed

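Bulk RNA of sorted tdT+ and tdT− dCAMs was measured in 20 libraries from 10 mice. The deposited values were raw counts per gene symbol, which the authors made from SMART-Seq mRNA LP libraries (PCR-amplified, without molecular identifiers) with STAR 2.7.11a and featureCounts (version 2.0.6 in the submitters' processing notes). The methods leave the genome build open, so positions were taken from GRCm38 with GENCODE M21 and serve only to locate genes. Lengths are those of the longest APPRIS principal transcript.

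Groups came from the labels. Genes under 10 counts in total were removed and 16632 were fitted jointly with edgeR 4.0.16 in R 4.3.3 (TMM, quasi-likelihood, 1 mean per group), with a common biological coefficient of variation of 1.13. SEs were derived from the quasi-likelihood F statistic. Alternatives used DESeq2 1.42.0 and limma 3.58.1. Where all libraries of a group had 3 counts or fewer, a fold is given against 3 counts per library. These floors cover counting error only. The fit was also run on simulated data, in which the changed genes were above the floor and the uneven tdT− CTL libraries were not reproduced. It therefore says nothing about those cases.

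The tdT+ and tdT− libraries of a mouse are paired, since both were sorted from the same animal. The correlation of their deviations from the group means was 0.000914 to 0.0333 in CTL and 0.0471 to 0.119 in LPS mice, and the estimated within-mouse correlation was 0.0413. The study's methods name DESeq2 without a design formula. The model reported here is edgeR's without a mouse term, and fits with mouse as a block were alternatives. No library pair was a duplicate, with at most 18.7% of counts equal over 11938 genes.

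The members and gene lists were chosen with earlier results of these data known. Named genes were all members, pathway genes called in at least 1 comparison, the 2 genes most like each member whose mean log2 CPM reached 4, and listed markers. Ripk3, Ripk1, Fadd, Gsdme and Ninj1 were named outside that rule.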

Additional observations from a re-analysis of the deposited data

Results flagged for a closer look

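On the log2 CPM scale (prior count 2), in 8 of the 38 combinations of gene and group with a library over 3 counts, the highest or lowest of the 5 libraries was separated from its nearest neighbour by more than 0.71 of the range of the group. Chance gives such a gap in about 1 in 20 groups of normally spread values. Some of the groups hold libraries at or near 0 counts, so the 8 of 38 cannot be read against that rate. The list depends on the scale, since 9 combinations passed on CPM and 5 on both scales. In tdT− CTL dCAMs, Casp1 was lowest in mouse 175 at 40.5 CPM and Mefv was highest in mouse 178 at 2.26 CPM, where the other 4 libraries had 0 counts. In tdT+ CTL dCAMs, Aim2 was at 0.0 CPM in mouse 179, Nlrp1b was highest in mouse 175 at 15.7 CPM and Casp4 was lowest in mouse 174 at 0.162 CPM. In tdT− LPS dCAMs, Aim2 was highest in mouse 59 at 40.6 CPM and Pycard in mouse 60 at 390.0 CPM, and in tdT+ LPS dCAMs Nlrp1b was lowest in mouse 59 at 0.0696 CPM. On CPM, Aim2 and Casp4 in tdT+ CTL and Casp1 in tdT− CTL dCAMs did not pass, and the libraries that passed there alone were the highest ones of Aim2 (mouse 179) and Casp4 (mouse 178) in tdT− CTL, Nlrp1b (mouse 59) in tdT− LPS and Casp4 (mouse 61) in tdT+ LPS dCAMs.

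The LPS effect differed between the populations for Mlkl, taken as the log2 effect of tdT+ dCAMs less that of tdT− dCAMs (−7.17 ± 1.69, SE, n = 5 per group, edgeR adjusted p = 0.0361), and for Nlrx1 (−6.93 ± 0.99, adjusted p = 0.000916). Both genes had at most 1 count in each tdT− CTL library, so the size of these differences depends on the fit. For Mlkl the call was lost in 8 of the 10 fits without 1 mouse (adjusted p 0.0534 to 0.129) in the voom fit with a mouse block (−3.68, adjusted p = 0.113, where the median over all genes was −0.61), and without the 3 tdT− CTL libraries with the fewest detected genes (−8.95, adjusted p = 0.0896). The range over all its alternatives was 0.000547 to 0.315, and for Nlrx1 it was 2.83e-11 to 0.0401. The cause was not tested.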

How the results depend on the processing

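Over 1020 comparisons of a member's value with an alternative, 0 calls were reversed, 975 kept their side of the threshold, 14 fell short of it and 31 newly passed. Of the values not called in either fit, 94 had the opposite sign. Most of the values compared were not called in the main fit, so the 975 does not measure how steady the calls were. The 14 were calls of Nlrp1b between populations in CTL mice, Gsdmd in tdT+ LPS and Mefv in tdT− LPS. Members called in tdT− LPS (2) numbered 6 with DESeq2, 1 in the fit of the comparison alone, 5 with the replicate block through voom, and 2 to 4 without 1 mouse, the highest without CTL mouse 178. Those in tdT+ LPS (3) numbered 6 with limma-voom quality weights, 6 in the fit alone, 5 without the 3 tdT− CTL libraries with the fewest detected genes (an alternative chosen after seeing the data), and 2 to 3 without 1 mouse. Those between populations in CTL mice (1) numbered 0 without a filter, 2 with DESeq2, 0 in the fit alone, 2 and 0 with the replicate block through voom and as a fixed term, 2 without the 3 libraries, and 0 to 1 without 1 mouse. The difference of LPS effects (0) had 1 member with DESeq2 and 1 without the 3 libraries. Over all genes, calls in tdT+ LPS numbered 979, and 3155 with quality weights, 2262 in the fit alone and 1943 without the 3 libraries. Those between populations in CTL mice numbered 712, and 1644 with DESeq2, 7 in the fit alone and 1359 without the 3 libraries. The replicate block gave 2245 there through voom and 540 as a fixed term. For the difference they numbered 209, and 744 with DESeq2 and 678 without the 3 libraries. In tdT− LPS DESeq2 called 2843, against 1907.

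Further pathway genes called in tdT− LPS (8) numbered 5 in the fit alone, 15 with the replicate block, 15 without the 3 libraries, and 6 to 10 without 1 mouse. Between populations in CTL mice (5) they numbered 1 with quality weights, 0 in the fit alone, 8 without the 3 libraries, and 5 to 8 without 1 mouse, the highest without CTL mouse 174 or 178. In LPS mice (0) they numbered 1 with quality weights and 1 in the fit alone. For the difference of LPS effects (2) they numbered 4 with DESeq2, 1 with quality weights, 1 with the replicate block through voom, and 1 to 3 without 1 mouse, the highest without CTL mouse 174 or 178. In tdT+ LPS (10) the count stayed within 1.5 times, with 7 to 12 without 1 mouse.

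The voom fits moved the median tdT− LPS log2 fold change of all genes from 0.02 to 0.68 (quality weights) and 0.76 (replicate block), that between populations in CTL mice from −0.01 to 0.49 and 0.54, and that of the difference of LPS effects from 0.03 to −0.58 and −0.61. The mouse block as a fixed term moved the latter medians to 0.54 and −0.64, so that values of these fits are to be read against those medians. For the 10 members, the replicate block changed no call other than those given beside their results. Genes at 3 counts or fewer limit what can be said of Nlrp1b, Mefv and Nlrc4 in tdT− CTL dCAMs. Over all genes, calls in tdT− LPS numbered 1907, and 4523 with the replicate block, 2843 with DESeq2 and 891 in the fit alone. The cause of these moves was not tested.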
